A study of Saccharomyces cerevisiae with 12 samples.

Results

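The small nuclear RNAs of the spliceosome and 4 other stable non-coding RNAs that work inside ribonucleoprotein particles were followed in budding yeast, Saccharomyces cerevisiae. They are the 6 rows of type snRNA in the deposited table of read densities, together with SCR1, RPR1, NME1 and TLC1, 10 of 12026 features in all. All 10 passed the filter on low values. The rows SNR7-L and SNR7-S are the long and short forms of U5, start at the same base and differed by 0 to 3 reads in a library, so they are 1 measurement and 9 separate RNAs remain. Wild type cells (WT), wild type cells with FU (WT+FU) and rrp6-delta cells, which lack the gene RRP6, were each sampled 40 min and 100 min after synchronization, with 2 biological replicates in each of the 6 groups. The title of the series gives FU as 5-fluorouracil. The sources used here do not give its dose, its time of addition, how cells were synchronized, the strain or the number of deletion clones. Total RNA was extracted with hot phenol, depleted of rRNA and sequenced strand by strand as read pairs.

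The spliceosome assembles from 5 snRNAs. U1, from SNR19, pairs with the start of an intron, and U2, from LSR1, pairs with its branch site. U6, from SNR6, arrives paired with U4, from SNR14, and forms part of the catalytic centre once U4 has been released, while U5, from SNR7, holds the exon ends in a loop. SCR1 is the RNA of the signal recognition particle, which directs nascent secretory proteins to the endoplasmic reticulum. RPR1 is the RNA of RNase P, which trims the start of tRNA precursors, NME1 is the RNA of RNase MRP, which cuts precursor rRNA, and TLC1 is the template RNA of telomerase. U6, RPR1 and SCR1 are made by RNA polymerase III and the others by RNA polymerase II. Rrp6 is a 3′ to 5′ exonuclease of the nuclear exosome that trims the 3′ ends of many small nuclear and nucleolar RNA precursors and degrades unstable non-coding transcripts. FU is a uracil analogue that can be built into RNA in place of uracil.

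The sequences that follow show where these RNAs pair, and the first and the second are the RNAs whose levels differed most from wild type. They are the RefSeq sequences of build R64, whose start, end and strand equal those of the table for all 10 members, and are written 5′ to 3′ as DNA. In U6 (chr12:366235-366346, plus strand) the capitals mark ACAGAGA, which pairs near the 5′ splice site, and the 11 bases from position 70 to 80 that are complementary to positions 1 to 11 of U4. In U4 (chr5:167427-167586, minus strand) they mark those positions 1 to 11 and the Sm site ATTTTTGG at positions 144 to 151, where the Sm ring of proteins binds. In U1 (chr14:230105-230672, minus strand, positions 1 to 40 shown) they mark ACTTACCT at positions 3 to 10, in U2 (chr2:680688-681862, minus strand, positions 1 to 60 shown) the branch site pairing GTAGTA at positions 34 to 39, and in U5 (chr7:939459-939672, minus strand) the loop GCCTTTTAC and the site ATTTTTTGG. In TLC1 (chr2:307587-308887, plus strand, positions 448 to 503 shown) they mark the template of the telomere repeat.
SNR6: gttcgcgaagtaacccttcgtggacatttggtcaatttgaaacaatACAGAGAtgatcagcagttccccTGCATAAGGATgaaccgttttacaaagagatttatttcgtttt
SNR14: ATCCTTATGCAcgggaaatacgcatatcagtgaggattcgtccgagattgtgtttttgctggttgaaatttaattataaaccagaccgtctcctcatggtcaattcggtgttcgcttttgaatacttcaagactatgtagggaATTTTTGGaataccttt
SNR19: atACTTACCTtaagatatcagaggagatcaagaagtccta
LSR1: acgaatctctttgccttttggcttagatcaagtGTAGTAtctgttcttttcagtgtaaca
SNR7-L: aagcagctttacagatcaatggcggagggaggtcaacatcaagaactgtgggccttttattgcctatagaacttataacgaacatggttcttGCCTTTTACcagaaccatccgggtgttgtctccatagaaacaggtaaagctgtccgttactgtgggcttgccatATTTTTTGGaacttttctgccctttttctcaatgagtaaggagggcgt
TLC1: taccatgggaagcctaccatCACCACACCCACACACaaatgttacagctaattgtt

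Searched on the strand of the RNA, ACTTACCT, ACAGAGA, GCCTTTTAC, ATTTTTTGG and the template were in 0 of the 76 other snoRNAs of the table, ATTTTTGG in 1 of them, or 1.32%, and GTAGTA in 3, or 3.95%. Among the members, ATTTTTGG was also found in TLC1 and LSR1 and at 2 positions of SNR19, ACAGAGA in TLC1 and ATTTTTTGG in LSR1. The other members are SCR1 at chr5:441987-442508 on the plus strand, RPR1 at chr5:117667-118035 on the minus strand, and NME1 at chr14:585587-585926 on the plus strand, of type snoRNA in the table.

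The libraries held 20102931 to 27498217 reads over all features. The members took 8.29 to 12.7% of them, and counting error is small for each: SNR6, the least covered, had 771 to 5892 reads in a library, and SCR1, the most covered, 940392 to 1494594. Density is reads per nt of the RNA, scaled by the authors so that every library has the same total over protein-coding genes, and levels below are densities. SCR1 had the highest level in every group, followed by LSR1 and SNR19. The mean level in wild type at 40 min was 2250 ± 473 (SD, n = 2) for SCR1, 537 ± 202 for LSR1, 437 ± 205 for SNR19, 349 ± 204 for NME1, 272 ± 117 for SNR7-S, 139 ± 50.1 for RPR1, 20.6 ± 12.7 for SNR14, 10.2 ± 3.63 for SNR6 and 5.64 ± 0.0658 for TLC1. In that group the ranges of LSR1 and SNR19, of SNR19 and NME1, of NME1 and SNR7-S, and of SNR14 and SNR6 overlapped, so these neighbours in the order did not differ beyond their spread. U4 and U6, at 160 nt and 112 nt the shortest of the RNAs, stood far below U1, U2 and U5, although they act in the same particle. The part of their length in this was not tested.

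**Figure D1:**
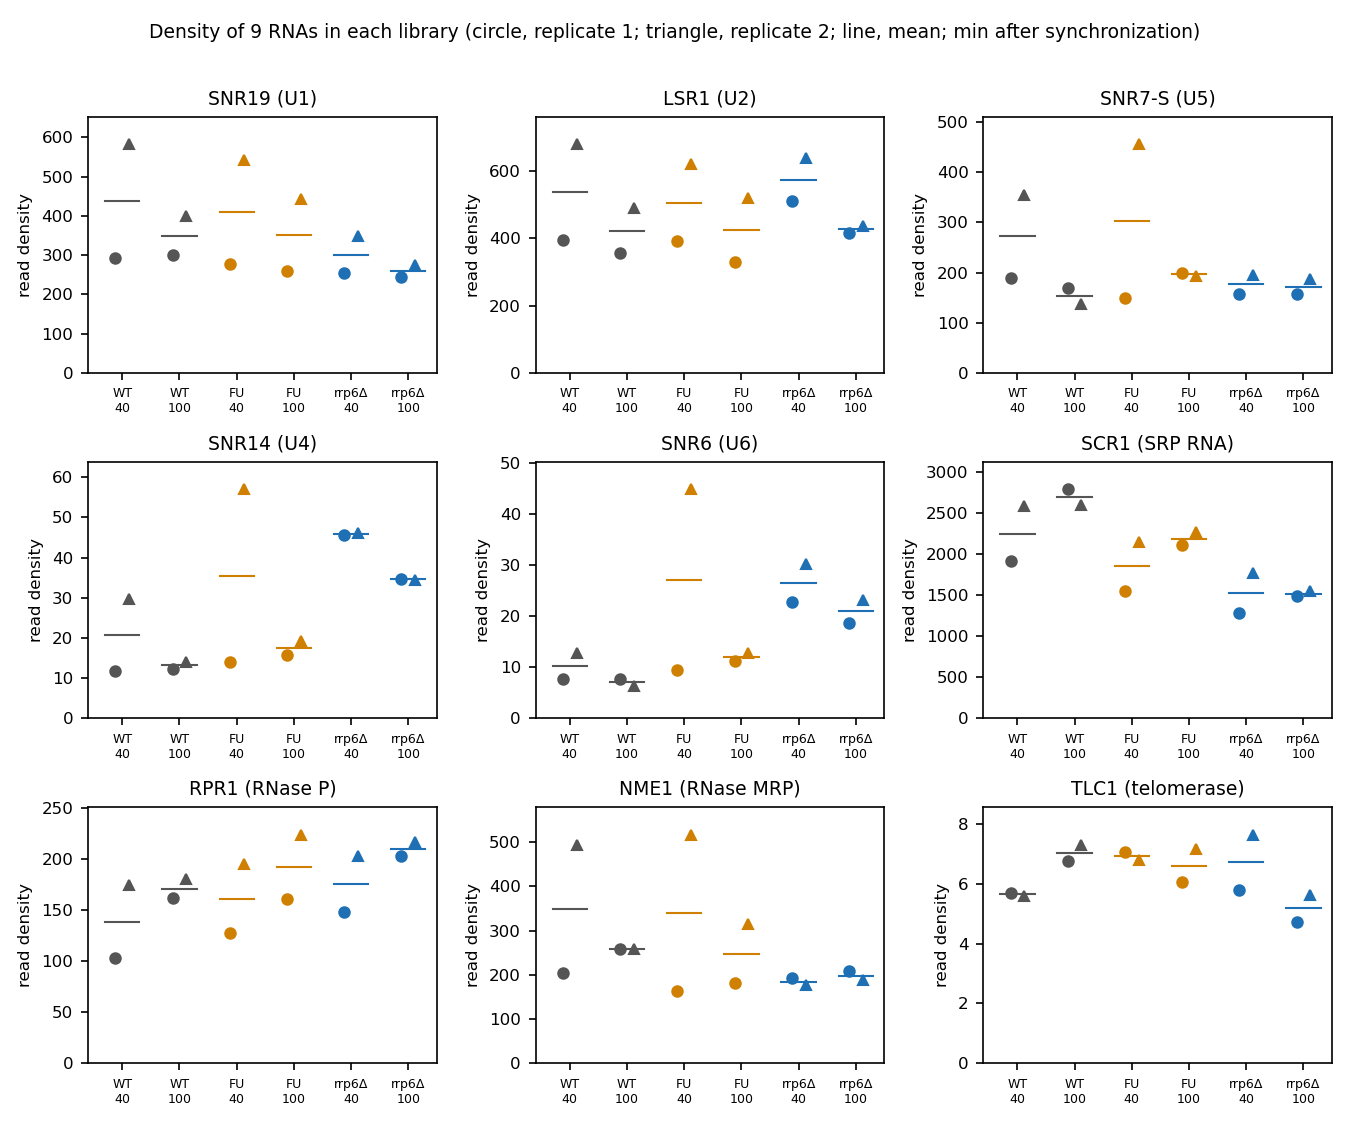
Read density (reads per nt, scaled by the authors) of 9 RNAs in each of the 12 libraries, with circles for replicate 1, triangles for replicate 2 and a line at the mean of the pair. SNR14 and SNR6 are higher in the 4 rrp6-delta libraries than in all wild type libraries, SCR1 is lower there, and in wild type and FU at 40 min replicate 2 lies far above replicate 1 for most RNAs.

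Replicates of the same group differed more for the snRNAs than for most genes. The SD within groups on the log2 scale was 0.71 for SNR14, 0.70 for SNR6, 0.65 for NME1, 0.55 for SNR7-S, 0.49 for SNR19 and 0.39 for LSR1, against a median of 0.26 over genes and 0.58 over the other snoRNAs. It was 0.34 for RPR1, 0.23 for SCR1 and 0.16 for TLC1, and the last value was below that of most genes. The spread came mainly from 2 pairs. In FU at 40 min replicate 2 exceeded replicate 1 by 4.73-fold for SNR6, 4.10-fold for SNR14, 3.16-fold for NME1 and 3.05-fold for SNR7-S, and in wild type at 40 min by 2.55-fold for SNR14, 2.42-fold for NME1 and 1.99-fold for SNR19. TLC1, the longest of the RNAs, had ratios of 0.965 and 0.984 in the same pairs. In these 2 libraries snoRNAs, with the member NME1 counted among them, took 20.9 and 20.2% of the reads, and in the other 10 they took 9.99 to 15.4%. The part of this share in the results was not tested, and changes without the 2 libraries are given beside single RNAs. Those fits were chosen after the data were seen. They also take these 2 pairs out of the shared spread, so an adjusted p can fall where the change stays the same.

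Loss of Rrp6 left U6 and U4 higher than in wild type, and these were the only members called over both times. The mean of both times rose by 1.49 ± 0.41 on the log2 scale (SE, limma, adjusted p = 0.00951) for SNR6 and by 1.35 ± 0.42 (adjusted p = 0.0165) for SNR14. In all 4 rrp6-delta libraries both RNAs were above all 4 wild type libraries, a pattern shown by 57.6% of all features. Of the members 2 of 10 were thus called higher and 0 lower, while 66.4% of all 11485 features tested were called higher and 4.14% lower. The protein-coding gene in the middle of the range had a log2 change of 0.45, and the median over all features was 0.93. For the 76 other snoRNAs the median was 0.59, with 31 called higher and 11 lower. Both calls were lost under median of ratios scaling, with 1.00 (adjusted p = 0.0981) for SNR6 and 0.86 (adjusted p = 0.164) for SNR14, where TLC1 was the only member called. In these bulk samples a change in the share of cells that hold an RNA and a change in its amount per cell cannot be told apart.

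The RRP6 gene itself had a density of 0.868 to 1.30 in wild type and 0.0507 to 0.0781 in the deletion. It fell by 3.81 ± 0.21 on the log2 scale at 40 min (limma, adjusted p = 9.1e-06). It fell by 3.69 ± 0.21 at 100 min (adjusted p = 9.01e-06), so the deletion shows in all 4 libraries labelled with it.

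Wild type densities of SNR6 were 7.62 and 12.8 at 40 min, with 7.65 and 6.32 at 100 min. They were 22.8 and 30.1 in rrp6-delta at 40 min, then 18.7 and 23.2 at 100 min. The groups did not overlap at either time. The share of all features that lie apart in this way with 2 against 2 libraries was not counted, so no weight is put on it. The log2 change was 1.41 ± 0.59 at 40 min (limma, adjusted p = 0.0659) and 1.58 ± 0.59 at 100 min (adjusted p = 0.0416). At 100 min SNR6 was the only member called, beside a background of 57.1% of features called higher and 2.80% lower, and at 40 min 0 members were called, beside 54.2% and 2.85%. The unadjusted p was under 0.05 for 1 member at 40 min and for 3 at 100 min, and limma-voom on the recovered reads called 0 and 2. The call at 100 min was lost when any 1 of the 4 libraries was left out (adjusted p 0.0919 to 0.161), whereas the call over both times held in every such fit (0.00954 to 0.0347). At 100 min it was also lost with no filter on low values (adjusted p = 0.0549), under median of ratios scaling (1.09, adjusted p = 0.209) and under quantile normalization (1.32, adjusted p = 0.0646). TLC1 was called in the last 3 fits, alone in the first and the second and with SNR14 in the third.

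Wild type densities of SNR14 were 11.6 and 29.6 at 40 min, with 12.3 and 13.9 at 100 min. They were 45.7 and 46.2 in rrp6-delta at 40 min, and 34.7 and 34.4 at 100 min. The 2 mutant replicates lay almost on top of each other at each time, and the spread was in wild type. The log2 change was 1.31 ± 0.59 at 40 min (limma, adjusted p = 0.0882) and 1.40 ± 0.59 at 100 min (adjusted p = 0.0678). Without wild type replicate 2 at 40 min, which had one of the high snoRNA shares, the change at 40 min was 1.98 (adjusted p = 0.0283), and without replicate 1 it was 0.63 (adjusted p = 0.407). Without both libraries of high snoRNA share it was 1.98 for SNR14 and 1.78 for SNR6. At 100 min the change of SNR14 stayed at 1.40, since neither library left out is of that time. Only the shared spread differs there, so a call at 100 min under this setting is not read as support. These fits leave 1 wild type library at 40 min, which is taken to vary like the other groups. The call of SNR14 over both times held when any 1 library was left out (adjusted p 0.00542 to 0.0489).

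U1, U2 and U5 did not pass the test in rrp6-delta. SNR19 had 292 and 583 in wild type at 40 min, 299 and 399 at 100 min, 255 and 348 in rrp6-delta at 40 min, and 245 and 275 at 100 min. Of the mutant libraries 3 were below the lowest of wild type, and the log2 change over both times was -0.44 ± 0.33 (limma, adjusted p = 0.26, 95% interval -1.20 to 0.31). LSR1 had 393, 680, 356 and 490 in wild type and 510, 638, 415 and 437 in rrp6-delta, in the same order of times and replicates. Its ranges overlapped, with a change of 0.086 ± 0.30 (limma, adjusted p = 0.808). SNR7-S had 189, 354, 168 and 138 in wild type and 158, 196, 157 and 187 in the mutant, which overlapped as well, with -0.19 ± 0.35 (adjusted p = 0.637).

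The signal recognition particle RNA was lower in the mutant in every library, although the fit did not call it. SCR1 had densities of 1915, 2585, 2791 and 2601 in wild type and of 1281, 1771, 1485 and 1556 in rrp6-delta. The highest mutant library was thus below the lowest wild type library, a pattern shown by 2.44% of all features, whereas 57.6% lay wholly above as SNR6 and SNR14 did. The log2 change over both times was -0.69 ± 0.32 (limma, adjusted p = 0.0773), and 6 of 20 alternative settings called it, among them limma-voom (adjusted p = 0.00342) and scaling to the total of all features (-0.63, adjusted p = 0.00463). Without the 2 libraries of high snoRNA share it was -0.59 over both times and stayed at -0.83 at 100 min, where only the shared spread differs. The change over both times turned to 0.18 under quantile normalization, which gives features of equal rank the same value. At 100 min it was 0 there, so this setting cannot show a change of so abundant an RNA that keeps its rank. SCR1 was above 0 over both times under only 1 of the 5 scalings tried, and at 40 min under 2 of them.

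RPR1 and NME1, the RNAs of a pair of related enzymes that share most of their proteins, had changes of opposite sign, and neither was called with the densities as deposited. RPR1 had 103, 174, 162 and 180 in wild type and 148, 203, 203 and 217 in the mutant, with overlapping ranges and a log2 change over both times of 0.33 ± 0.25 (limma, adjusted p = 0.252). Without the 2 libraries of high snoRNA share the change of RPR1 was 0.75 at 40 min and 0.52 over both times. Under quantile normalization RPR1 was called higher over both times (0.69, limma, adjusted p = 0.0078). NME1 had 204, 493, 258 and 259 in wild type and 192, 176, 209 and 187 in the mutant. Only 1 mutant library was above the lowest of wild type, and the change was -0.59 ± 0.41 (limma, adjusted p = 0.221). Under the 5 scalings tried RPR1 ran from -0.15 to 0.95 and NME1 from -1.08 to 0.033.

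Telomerase RNA had the smallest spread between replicates of all members. TLC1 had 5.69 and 5.60 in wild type at 40 min, 6.76 and 7.30 at 100 min, 5.80 and 7.64 in rrp6-delta at 40 min, and 4.73 and 5.62 at 100 min. The mutant was above wild type at the earlier time and below it at the later time, without overlap at either. With 2 against 2 libraries the share of all features showing this was not counted, so no weight is put on it. The log2 change was 0.24 ± 0.18 at 40 min (limma, adjusted p = 0.28) and -0.45 ± 0.18 at 100 min (adjusted p = 0.0555). The difference between these changes was -0.68 ± 0.25 with an unadjusted p of 0.0238 and an adjusted p of 0.564. In that test of rrp6-delta by time 0 members were called, with 1 at an unadjusted p under 0.05 and 0 by limma-voom, beside 0.0174% of features called higher and 0.0609% lower. The change at 100 min was called under 6 of 16 settings, among them median of ratios scaling (-0.93, adjusted p = 0.00794), and turned to 0.13 when scaled to snoRNAs. Another of the 6 was the fit without the 2 libraries of high snoRNA share, where the change stayed at -0.45 and only the shared spread differs.

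**Figure D2:**
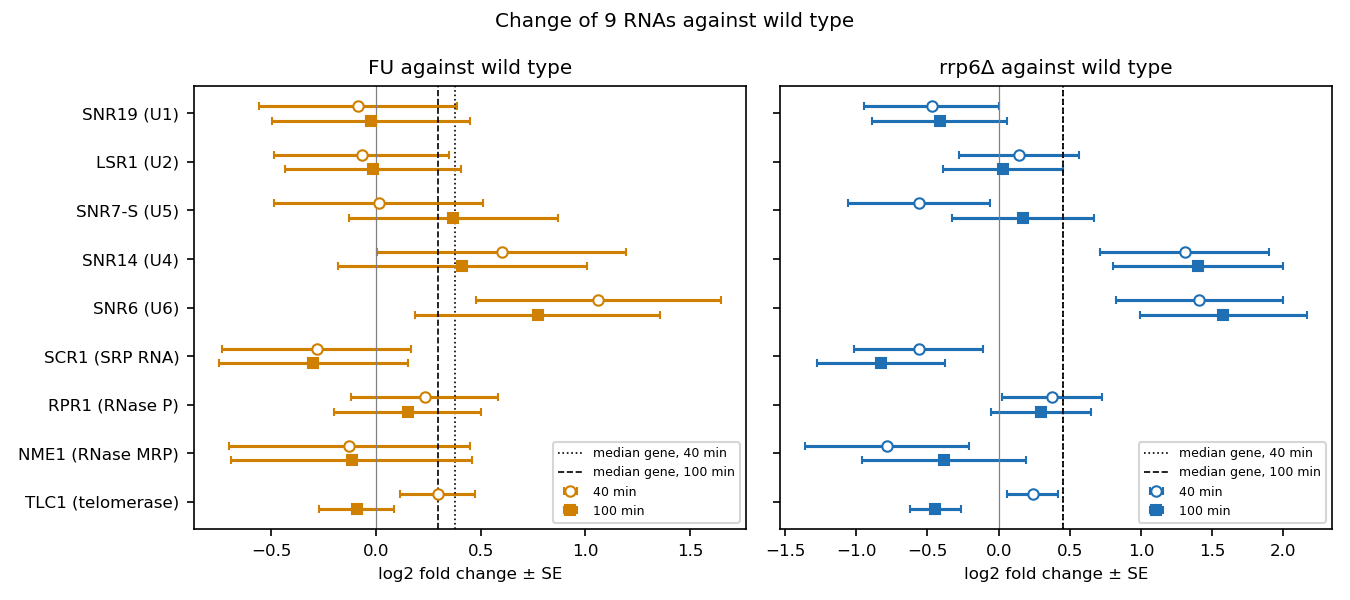
Log2 fold change against wild type with its SE for 9 RNAs, with open circles for 40 min, filled squares for 100 min, FU on the left and rrp6-delta on the right, and dotted and dashed lines at the median gene. SNR6 and SNR14 lie to the right of the median gene in the mutant at 1.31 to 1.58, while SCR1 lies between -0.56 and -0.83.

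No member was called in FU. At 40 min 0 of 10 passed, beside 2.54% of features called higher and 0.235% lower, and at 100 min 0 of 10, beside 1.74% and 0.409%. Over both times it was 0 of 10, beside 17.7% and 0.853%. The unadjusted p was under 0.05 for 0 members in each of these comparisons, and limma-voom also called 0. No member had all 4 FU libraries above or below all 4 wild type libraries, a pattern shown by 13.5 and 0.514% of features.

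U6 was the member nearest to a change in FU. With FU the densities of SNR6 were 9.47 and 44.7 at the earlier time and 11.1 and 12.7 at the later one, against 7.62 and 12.8, and 7.65 and 6.32, in wild type. The FU libraries were above wild type at 100 min, and 1 of the 2 stood far above it at 40 min. For SNR6 and the RNAs that follow, the share of all features apart at 100 min was not counted. The log2 change over both times was 0.92 ± 0.41 (limma, adjusted p = 0.13, 95% interval -0.02 to 1.85). This rests in part on FU replicate 2 at 40 min: without FU replicate 1 at 40 min the change at that time was 2.18 (adjusted p = 0.0244) and without replicate 2 it was -0.058. Without the 2 libraries of high snoRNA share the change was 0.54 over both times. At 100 min it stayed at 0.77, where only the shared spread differs.

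The densities of SNR14 with FU were 13.9 and 57.0 at the earlier time and 15.8 and 19.2 at the later one, and its log2 change over both times was 0.51 ± 0.42 (limma, adjusted p = 0.371). It was 1.01 (adjusted p = 0.0336) without FU replicate 1 at 40 min and -0.0034 (adjusted p = 0.997) without replicate 2. At 100 min both FU libraries were above both of wild type, as for SNR6, and at 40 min the ranges overlapped. SNR19 had 277, 543, 261 and 443, LSR1 had 391, 620, 329 and 519, and SNR7-S had 150, 456, 199 and 194 with FU, and each overlapped wild type at 40 min. At 100 min only SNR7-S, with both FU libraries above wild type, did not. Their changes over both times were -0.057 ± 0.33, -0.042 ± 0.30 and 0.19 ± 0.35, each smaller than its SE. SCR1 had 1552, 2151, 2107 and 2275 with FU, and its change was -0.29 ± 0.32 (limma, adjusted p = 0.49). At 100 min both FU libraries were below both of wild type. RPR1 had 127, 195, 161 and 224, NME1 had 163, 516, 181 and 314, and TLC1 had 7.05, 6.80, 6.06 and 7.16, with changes of 0.19 ± 0.25, -0.12 ± 0.41 and 0.10 ± 0.13. All but NME1 of the last 3 change sign among the scalings, as do SNR19, LSR1 and SNR7-S.

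FU and rrp6-delta share the same wild type controls, and set directly against each other no member was called. At 40 min 0 of 10 passed, beside 2.55% of features higher and 32.7% lower in FU, and at 100 min 0 of 10, beside 3.34% and 41.3%. The unadjusted p was under 0.05 for 0 members at either time, and limma-voom called 0. SNR14 at 100 min had the largest difference, lower in FU by 0.99 ± 0.59 on the log2 scale (limma, adjusted p = 0.213). This did not hold without the 2 libraries of high snoRNA share, a fit that takes their pairs out of the shared spread. The share of all features called in that fit was not counted for this comparison, so nothing is read from its calls. No member was called between the times either: between 100 and 40 min 0 were called in wild type, beside 1.31% of features higher and 1.06% lower, 0 with FU, beside 1.38% and 2.64%, and 0 in rrp6-delta, beside 1.08% and 0.784%. The test of FU by time gave 0, beside 0.00871% and 0.0958%. In these 4 tests 0 members had an unadjusted p under 0.05, and limma-voom called 0.

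Ratios of 2 RNAs within a library do not depend on how libraries were scaled to a common total. How many other pairs of features have ratios that separate was not counted, so no separation is read as particular to these RNAs. In wild type the ratio of SNR6 to SNR19 was 0.0261 and 0.0219 at 40 min, with 0.0256 and 0.0158 at 100 min. With FU it was 0.0341, 0.0824, 0.0426 and 0.0287 in the same order. It was 0.0892 and 0.0866 in rrp6-delta at 40 min, and 0.0762 and 0.0843 at 100 min. Both FU and rrp6-delta lay wholly above wild type, and FU replicate 2 at 40 min lay within the range of the mutant. On average the ratio was 1.96 times that of wild type with FU and 3.83 times in the mutant. For SNR14 to SNR19 the range was 0.0349 to 0.0509 in wild type, 0.0433 to 0.105 with FU and 0.125 to 0.179 in the mutant, or 1.48 and 3.47 times wild type. Here the mutant libraries were above all others, and FU overlapped wild type. SNR19 itself averaged 393 in wild type and 281 in the mutant, which raises ratios to it there. Relative to SNR7-S, SNR6 was 1.66 times wild type with FU and 3.22 times in the mutant. The same values for SNR14 were 1.24 and 2.92.

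U4 and U6 are carried in a duplex, and whether this bears on their ratio was not tested. On average the ratio of U6 to U4 was 1.10 times that of wild type in rrp6-delta and 1.33 times with FU. The ratio of SNR6 to SNR14 was 0.430 to 0.655 in wild type, 0.498 to 0.674 in rrp6-delta and 0.663 to 0.785 with FU, where it lay above all wild type libraries. U2 also differed from U1: LSR1 to SNR19 was 1.17 to 1.35 in wild type, 1.14 to 1.41 with FU and 1.59 to 2.00 in the mutant. SCR1 to RPR1 was 14.4 to 18.5 in wild type, 10.2 to 13.1 with FU and 7.18 to 8.71 in the mutant. The 3 conditions thus formed 3 separate ranges, and the share of other ratios that do so was not counted. NME1 to RPR1 was 1.44 to 2.83 in wild type, 1.13 to 2.65 with FU and 0.865 to 1.30 in the mutant.

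In 22 tests of 11 such ratios, which were chosen after their values were seen, 11 reached an exact permutation p of 0.0556 within time points. This is the smallest two-sided p that the 36 arrangements of 2 against 2 libraries at each time allow, and 0.111 after Benjamini-Hochberg adjustment over the 22. Among them were SNR6 to SNR19 in both conditions and SNR14 to SNR19 and LSR1 to SNR19 in the mutant, and the design cannot reach a p under 0.05.

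**Figure D3:**
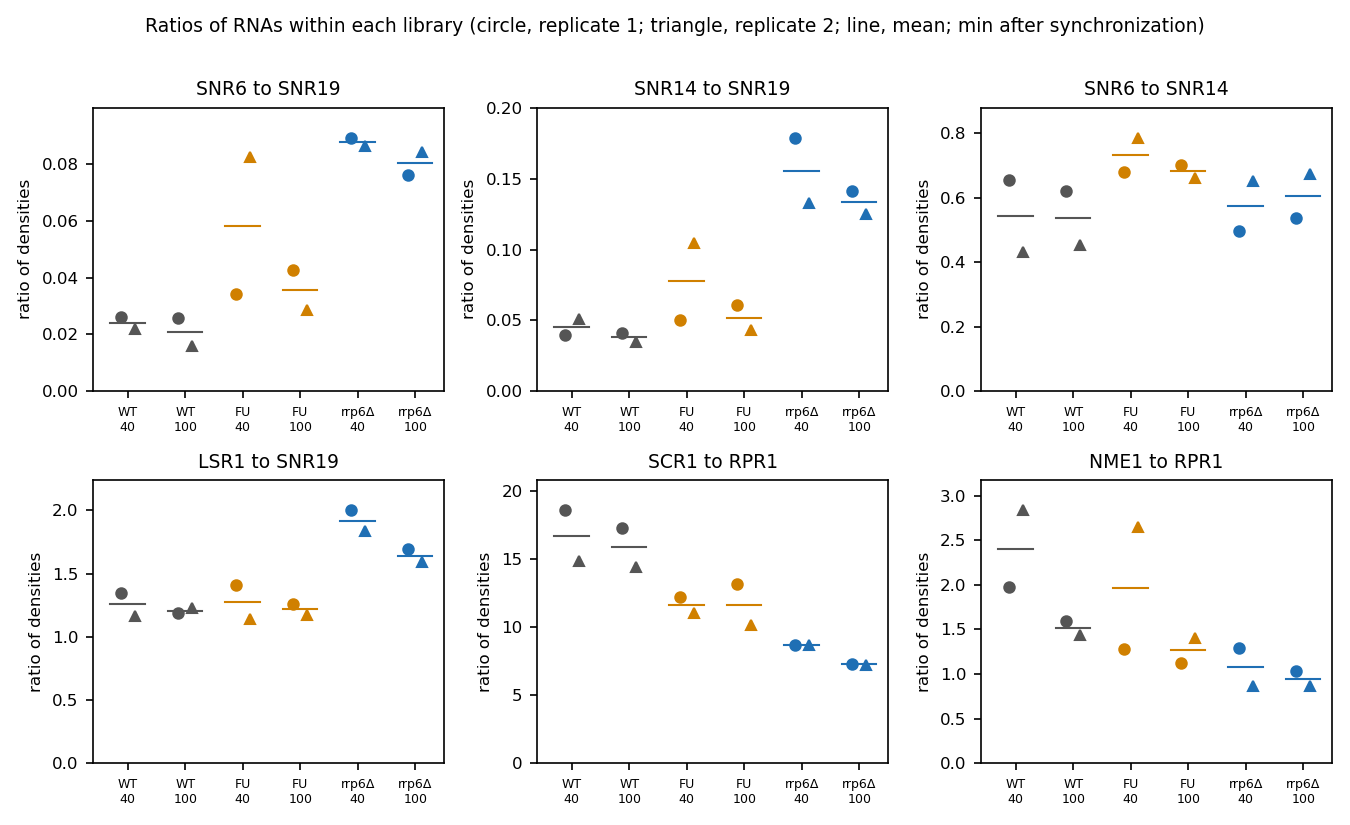
Ratio of the densities of 2 RNAs within each of the 12 libraries, with circles for replicate 1, triangles for replicate 2 and a line at the mean of the pair. SNR14 relative to SNR19 is highest in the 4 rrp6-delta libraries, SNR6 relative to SNR19 reaches 0.0824 in 1 FU library against 0.0762 to 0.0892 in rrp6-delta, and SCR1 relative to RPR1 steps from 14.4 to 18.5 in wild type to 10.2 to 13.1 with FU and 7.18 to 8.71 in rrp6-delta.

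Several features beyond the 3′ end of a member rose in rrp6-delta, also where the member itself was not called. The table lists 9 features that start on the same strand within 1000 nt past a member. In rrp6-delta the 6 that are not protein-coding genes were called higher at both times, beside the 54.2 and 57.1% of all features given above. Those shares include the protein-coding genes, whose median change was 0.45 at each time against 0.89 and 0.99 over all features. The share among features that are not genes was not counted, so 6 of 6 is not read as particular to these sites. Of the 3 protein-coding genes, TMA20 past SNR14 was lower, with -0.77 ± 0.19 at 40 min (limma, adjusted p = 0.00757) and -0.54 ± 0.19 at 100 min (adjusted p = 0.0346), the latter at 0.033 when scaled to snoRNAs. Leaving out 1 library took its adjusted p at 100 min to between 0.0168 and 0.27. OM14 past LSR1 (-0.91 and 0.29) and TOS2 past SNR7 (0.086 and 0.18) were not called. With FU 1 of the 9 was called higher at each time and 2 over both times, beside 2.54, 1.74 and 17.7% of all features.

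The stretch past U4 holds the cryptic unstable transcript CUT549, which begins 100 nt beyond the annotated end of SNR14. Reads of CUT549, recovered from its densities, were 397, 897, 412 and 615 in wild type, with both replicates at 40 min first. They were 619, 2381, 664 and 867 with FU and 3436, 2834, 2350 and 1985 in rrp6-delta. As for SNR14, FU replicate 2 at 40 min was far above the other libraries with FU. The density rose in rrp6-delta by 2.04 ± 0.64 on the log2 scale at 40 min (limma, adjusted p = 0.0219) and by 1.67 ± 0.64 at 100 min (adjusted p = 0.0472). The call at 100 min was lost when any 1 of the 4 libraries was left out (adjusted p 0.0877 to 0.184), and that at 40 min ranged from 0.00864 to 0.125 in such fits. As a share of the reads of SNR14 it came to 17.2 to 25.3% in wild type, 20.9 to 24.5% with FU and 25.4 to 33.4% in the mutant. RefSeq holds these 100 bases between them (chr5:167327-167426, minus strand, build R64), in which the capitals mark TCTT and GTAA.
past SNR14: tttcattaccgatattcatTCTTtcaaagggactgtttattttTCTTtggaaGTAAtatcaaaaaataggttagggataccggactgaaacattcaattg

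TCTT is bound by Nab3 and GTAA and GTAG by Nrd1, a pair of proteins that end transcription of short non-coding RNAs. The 100 bases hold TCTT at 2 positions, GTAA at 1 and GTAG at 0, searched on the strand of U4. Windows of the same length past 5775 genes held TCTT in 52.2%, GTAA in 42.1% and GTAG in 20.6% of cases, and those past 77 snoRNAs held them in 83.1, 48.1 and 39.0%. The motifs overlap no other searched motif, and such matches are common in windows of this length.

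Past NME1 lie the snoRNA SNR66, then CUT342 and XUT0766, a transcript of the class degraded by the exonuclease Xrn1. CUT342 had 14, 8, 2 and 9 reads in wild type, 81, 78, 64 and 35 with FU and 3431, 3772, 2236 and 3134 in rrp6-delta. It was the only feature past a member called with FU at 40 min and the only one at 100 min. It was higher by 2.49 ± 0.41 on the log2 scale at 40 min (limma, adjusted p = 0.0335) and by 2.66 ± 0.41 at 100 min (adjusted p = 0.0148). Wild type has few reads here, and with a constant 10 times larger added before the log the changes were 1.44 and 1.19. The adjusted p ran from 0.0300 to 0.122 and from 0.0254 to 0.115 when 1 library was left out. In the mutant it rose by 7.77 and 8.14 (adjusted p = 8.52e-06 and 7.44e-06). SNR66 had 379 to 896 reads in wild type, 716 to 2376 with FU and 6513 to 11004 in the mutant, where it rose by 3.74 ± 0.52 (adjusted p = 0.000335) and 3.58 ± 0.52 (adjusted p = 0.000384). XUT0766 rose by 4.94 and 3.90 there (adjusted p = 0.00016 and 0.000486), from 13 to 17 reads in wild type to 200 to 984. It was the second feature called with FU over both times, at 1.41 ± 0.42 (adjusted p = 0.0458). NME1 itself was not called in any of these comparisons.

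Past RPR1 the dubious open reading frame YEL020C-B had 2, 4, 0 and 5 reads in wild type, 5, 17, 6 and 14 with FU and 151, 187, 167 and 178 in rrp6-delta. It rose there by 4.60 ± 0.61 (limma, adjusted p = 0.000285) and 4.93 ± 0.61 (adjusted p = 0.000177), values that depend on the constant added, with 2.43 and 2.48 as the lowest under the alternatives. Past SCR1 the transcript SUT1414 had 40, 36, 11 and 12 reads in wild type, 25, 26, 16 and 18 with FU and 137, 133, 119 and 152 in the mutant, with a rise of 1.44 ± 0.21 (adjusted p = 0.000482) and 2.90 ± 0.21 (adjusted p = 1.98e-05). These reads are few beside the members: SUT1414 came to 0.0103 to 0.0146% of the reads of SCR1 in the mutant. No feature of the table starts on the same strand within this distance past SNR6, SNR19 or TLC1.

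**Figure D4:**
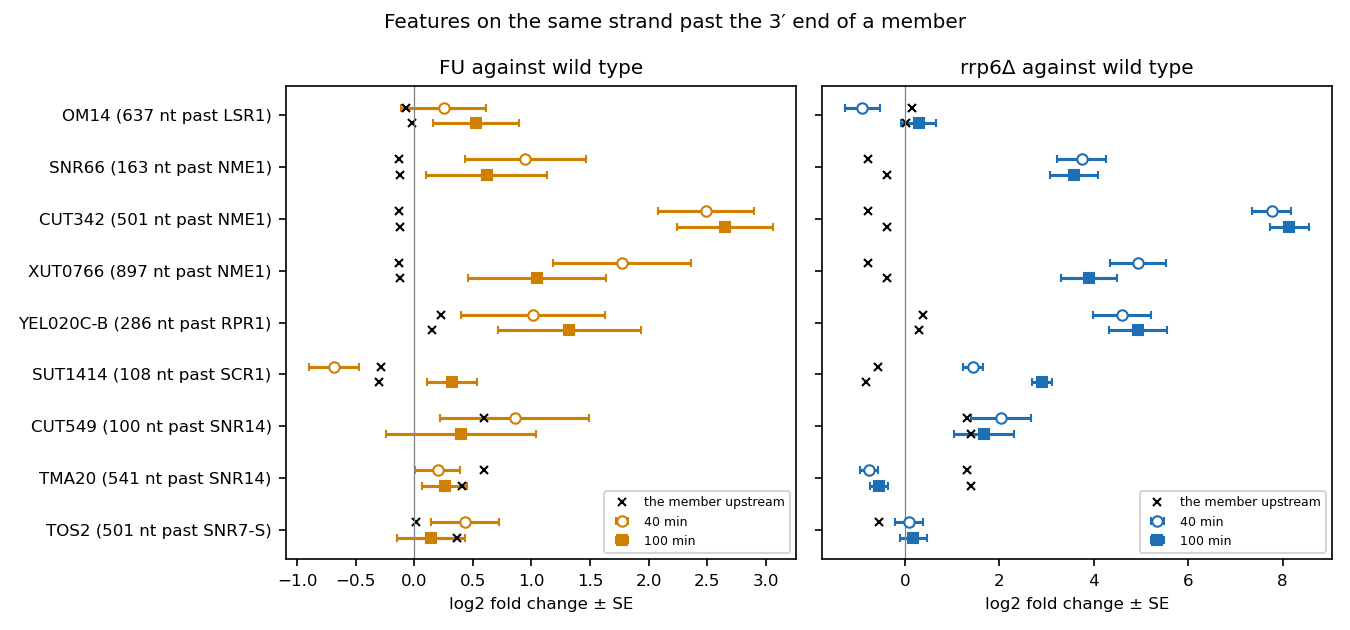
Log2 fold change with its SE of the 9 features past the 3′ end of a member on the same strand, at 40 min (open circles) and 100 min (filled squares), with a cross at the change of the member upstream, for FU (left) and rrp6-delta (right, on a wider axis). CUT342 past NME1 rises by 7.77 and 8.14 in the mutant while NME1 itself is at -0.79 and -0.39.

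On the opposite strand 5 features overlap a member. The libraries keep the strand, and these features had few reads beside the member: XUT0074 0.0838 to 0.192% of those of LSR1, XUT1151 0.0358 to 0.0771% of those of SCR1, MUT462 0.38 to 1.73% of those of SNR14, and SUT910 0.841 to 2.77% of those of TLC1. XUT1151 fell by 0.91 ± 0.26 on the log2 scale in rrp6-delta at each time (limma, adjusted p = 0.0152 and 0.0143). With 1 library left out its adjusted p reached 0.122 and 0.109. Reads of the wrong strand from so abundant an RNA were not tested as a source. MUT462, which shares 10 nt with SNR14, rose by 1.95 ± 0.41 and 2.18 ± 0.41 (adjusted p = 0.00322 and 0.00161). XUT0268, with 15 to 45 reads, XUT0074 and SUT910 were not called.

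The protein partners of these RNAs, 91 genes in 9 lists, were tested in the same fit. Of the 91, 38 rose and 3 fell in rrp6-delta at 40 min, and 45 rose and 1 fell at 100 min. This is 41.8 and 49.5% higher, against 54.2 and 57.1% of all features. The median partner changed by 0.56 and 0.62 on the log2 scale, and the median gene by 0.45 at each time. With FU 0 of 91 were called at either time, and over both times 13 rose, or 14.3%, against 17.7% of all features. The counts in rrp6-delta at 40 and 100 min fell to 14 and 16 under median of ratios scaling, where 36.2 and 41.3% of all features were called higher. They fell to 3 and 3 under quantile normalization, where 16.4 and 16.6% were. They also fell when 1 library was left out. The share of all features thus fell with the scaling as well, and nothing particular to the partners is read from this.

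The counts of each list that follow stand beside the same 54.2% of all features called higher at 40 min and 57.1% at 100 min, and nothing particular to a list is read from them. Of the proteins of the U4/U6 and U5 particles, the longest list, 11 of 17 were called higher at 40 min and 13 of 17 at 100 min. BRR2, the helicase that unwinds U4 from U6, rose by 1.39 ± 0.18 at 100 min (limma, adjusted p = 0.00024). PRP8, the scaffold of the catalytic centre, rose by 1.37 ± 0.22 at 100 min (adjusted p = 0.000718), and SNU66, a tri-snRNP protein, by 1.41 ± 0.22 at 40 min (adjusted p = 0.000638). The Lsm ring that binds the end of U6 had few calls: of its 7 proteins 0 rose and 2 fell at 40 min, and 1 rose and 1 fell at 100 min. LSM5 fell by 0.81 ± 0.21 (adjusted p = 0.00905) and LSM6 by 0.49 ± 0.15 (adjusted p = 0.0202), both at 40 min, and LSM8 rose by 0.73 ± 0.28 at 100 min (adjusted p = 0.0479). Without 1 library LSM5 had an adjusted p of up to 0.0814. LSM6 turned to 0.17 when scaled to snoRNAs and LSM8 to -0.82 under quantile normalization. Median changes of this list were -0.063 and 0.12. Of the 7 Sm proteins, which ring the other snRNAs, 4 rose at 40 min and 3 at 100 min, among them SMX2 (1.28 ± 0.18) and SMD3 (0.96 ± 0.17) at 100 min and SME1 (0.92 ± 0.22) at 40 min.

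For U1, 4 of 10 proteins rose at each time. They included SNP1 (1.83 ± 0.35) and LUC7 (1.21 ± 0.39) at 40 min and MUD1 (1.30 ± 0.21) at 100 min. For U2, 2 of 12 rose at 40 min and 5 at 100 min, with PRP11 at 0.88 ± 0.24, CUS1 at 0.66 ± 0.19 and YSF3 at 0.60 ± 0.18, all at 100 min. CUS1, YSF3 and MUD1 turned below 0 under quantile normalization. Signal recognition particle proteins and their receptor had 1 of 8 higher at 40 min and 3 at 100 min, namely SRP68 (0.76 ± 0.15), SRP14 (0.61 ± 0.22) and the alpha subunit of the receptor (0.51 ± 0.18), the last below 0 under quantile normalization.

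Of the 11 proteins of RNase P and RNase MRP 6 rose and 1 fell at 40 min and 8 rose at 100 min. POP3 rose by 1.67 ± 0.23 and POP1 by 0.99 ± 0.19 at 40 min, and POP4 by 1.02 ± 0.23 at 100 min. Of the telomerase proteins and partners 6 of 9 were higher at each time. The catalytic subunit EST2 rose by 1.67 ± 0.27, EST1 by 1.65 ± 0.21 and the telomere end binding protein STN1 by 1.53 ± 0.24 at 100 min, and EST2 turned below 0 under quantile normalization. Their RNA, TLC1, was at -0.45 at that time. Among 10 maturation and modification factors 4 rose at 40 min and 2 at 100 min. PUS1 (1.21 ± 0.22) and PUS7 (0.63 ± 0.16), which convert uridines of U2 to pseudouridine, rose at 40 min, and REX3 (0.64 ± 0.15), an exonuclease that trims the end of NME1, at 100 min, with REX3 at -0.22 under quantile normalization.

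How libraries are scaled decides the sign for most of these RNAs and not for U6 and U4. Under the 5 scalings the change of SNR6 in rrp6-delta over both times ran from 1.00 to 2.11 and that of SNR14 from 0.86 to 1.97, while the median gene moved from -0.46 to 1.04. Measured from the median gene of the same scaling, SNR6 stood 1.01 to 1.83 higher and SNR14 0.87 to 1.80 higher. LSR1 ran from -0.40 to 0.71, SNR19 from -0.93 to 0.18, SCR1 from -1.18 to 0.18 and TLC1 from -0.59 to 0.52, each through 0. Over both times SCR1 was above 0 only under quantile normalization, which ties features of equal rank. At 40 min it was above 0 under 2 of the 5 scalings, so its sign depends on scaling at that time.

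**Figure D5:**
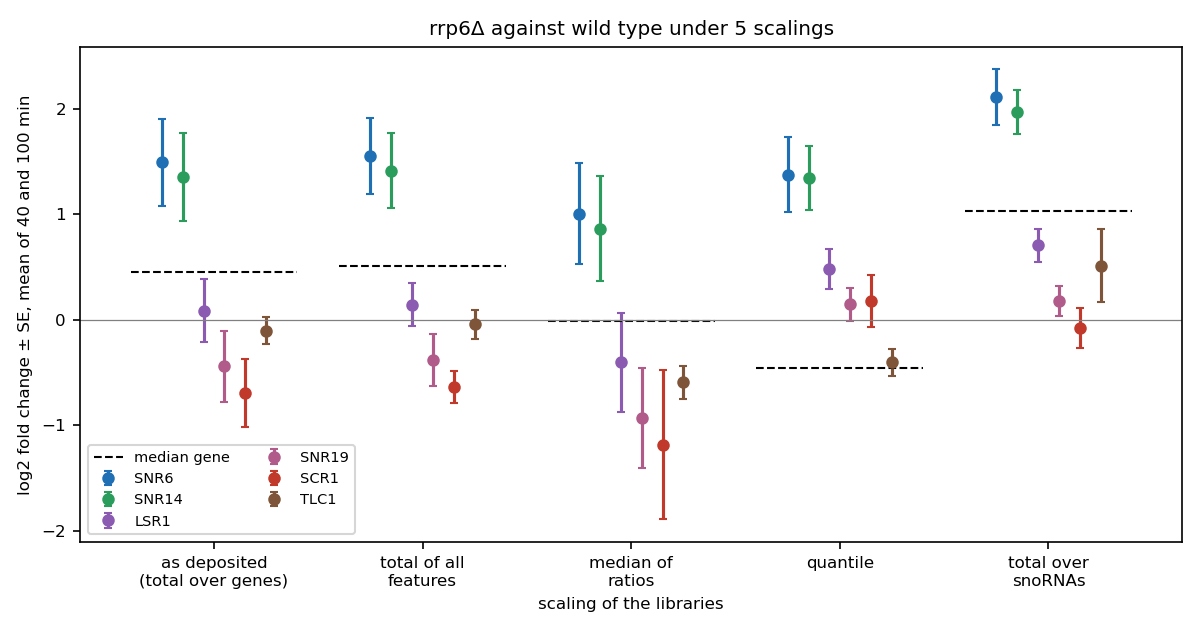
Log2 fold change of 6 RNAs in rrp6-delta against wild type over both times, with SE, under 5 scalings of the libraries, and a dashed line at the median gene under each. SNR6 and SNR14 stay above 0 and above the median gene throughout, at 0.86 or more, while the other 4 change sign, SCR1 only under quantile normalization.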

How the data were processed

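Total RNA-seq libraries from 12 samples in 6 groups of 2 biological replicates were analysed. The deposited file is a single table whose unit is a signal, namely the read density of every feature in every library as the authors computed it. TopHat is named, without a version, per the submitters' processing notes. How reads were counted and on which genome build is not stated in the sources used here. Multiplying a density by the feature's length and dividing by a factor specific to the library returned whole reads (within 0.001) for 100% of values, and after these factors every library has 14370740 reads over genes.

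Before taking log2, 0.0120173 (the 10th percentile of the values above 0) was added to each density. A feature entered the fit if 2 or more libraries reached that value, which kept 11485 features and dropped 541. limma 3.58.1 (R 4.3.3) fitted a mean for each group to all 12 libraries, using its variance trend, with 6 residual degrees of freedom. Tests were two-sided, Benjamini-Hochberg adjustment ran over all features kept, and a feature is called at an adjusted p under 0.05. P-values measure the spread between these libraries. The fit was tested on simulated data. Python 3.11.15 with pandas 2.3.3, NumPy 2.4.6 and matplotlib 3.10.9 served for tables and figures. Positions of 5757 of 5789 genes matched equal build R64.

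The members, lists and tests were chosen with earlier results of these data known. Partner genes were named by rule, up to 3 called ones per list with the smallest adjusted p in a comparison. Alternatives changed the added constant, filter, scaling, trend, libraries and replicate block.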

Additional observations from a re-analysis of the deposited data

How the results depend on the processing

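The count of members called depended on the settings in most comparisons with rrp6-delta. At 40 min (0 called) it was 2 when scaled to the total of all features, 4 to the snoRNA total, 3 under quantile normalization, 1 when only the groups compared were fitted, 3 without the 2 libraries of high snoRNA share (an alternative chosen after seeing the data) and 0 to 1 leaving out 1 library. At 100 min (1 called) the values were 3, 6, 2, 4 and 4, with 2 without a variance trend, 2 with limma-voom and 0 to 0 leaving out 1 library. Over both times (2 called) they were 6 for the snoRNA total, 4 for quantile and 1 (TLC1) for median of ratios. Under the last, SNR6 had 1.00 (limma, adjusted p = 0.0981) and SNR14 0.86 (0.164). Each 6 counts U5 as 2 rows. The share of all features called higher moved too. At 40 min, 100 min and over both times it was 55.3, 56.5 and 72.3% for the snoRNA total. It was 16.4, 16.6 and 22.7% for quantile and 36.2, 41.3 and 48.3% for median of ratios. Nothing particular to the members is read from these counts. For FU (0 called) the count was 0 to 1 at 40 min and 0 to 2 over both times leaving out 1 library, 1 over both times with the snoRNA total, and 1 without the high-share libraries at 100 min and over both times. FU against rrp6-delta (0 called) gave 3 at 40 min and 2 at 100 min with the snoRNA total. At 100 min it gave 1 under quantile and 2 with only the groups compared. Calls also appeared at 40 min leaving out 1 library, and at both times without the high-share libraries. The share of all features called under these settings was not counted for this comparison. Between times (0 called) it was 0 to 1 with FU leaving out 1 library and 1 in rrp6-delta with only the groups compared. The cause was not tested beyond the construction of each setting.

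Direction turned with a call on either side in rrp6-delta as follows. Over both times the snoRNA total gave 0.43 for SNR7-L and 0.43 for SNR7-S. At 40 min it gave 0.17 for LSM6, and quantile normalization -1.02 for SUT910, -1.22 for XUT0268 and -1.52 for TOS2. At 100 min the snoRNA total gave 0.033 for TMA20, and quantile normalization gave -1.38 for XUT0268, -1.49 for TOS2, -0.82 for LSM8, -0.022 for MUD1, -0.90 for CUS1, -0.19 for YSF3, -0.052 for the alpha subunit of the signal recognition particle receptor, -0.20 for EST2 and -0.22 for REX3. Of the other values of single features 2222 stayed on their side of the threshold, 127 lost a call and 67 gained one. The labels do not say what a replicate number shares, and with 2 numbers their pairing cannot be settled from the data: the deviations of same-numbered replicates correlated at 0.23 to 0.78 among the wild type and FU groups and at -0.09 to 0.18 between these and rrp6-delta. A fit with the replicate number as a block called 2 members at 40 min (SNR6 and SNR14) and 3 at 100 min (with TLC1) in rrp6-delta, added SCR1 over both times (adjusted p = 0.0419), and called 0 with FU (SNR6 over both times, adjusted p = 0.0747). Within same-numbered libraries of a time FU was above wild type in 4 of 4 for SNR6 and SNR14, as for 54.5% of all features, and below in 4 of 4 for SCR1, as for 2.00%. Depth did not limit the members, while XUT0268 had 15 to 45 reads in all libraries, and in wild type CUT342, XUT0766, YEL020C-B, MUT462 and SUT1414 had 0 to 40.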
